A study of Mus musculus with 2 samples.

Results

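The Iroquois homeobox genes Irx1, Irx2, Irx3, Irx4, Irx5 and Irx6 were examined in the heart ventricle of mouse embryos with and without Fendrr, which encodes a long non-coding RNA. All 6 members were taken by symbol from a table of 23276 genes, and all 6 had a row. The wild-type (WT) and the knock-out (KO) embryos were at stage E12.5 of embryonic development, shared a C57BL/6 x 129SV background and came from tetraploid complementation, a method that builds the embryo from embryonic stem cells placed with a tetraploid host. In the KO cells Fendrr had been knocked out on both alleles by homologous recombination. RNA of 4 ventricles was pooled per genotype and sequenced as 1 strand-specific library each, made from total RNA after removal of ribosomal RNA. With 1 library per genotype and a separate sequencing run for each, genotype, run and pool cannot be told apart, no p-value was computed, and every difference below is one between 2 libraries.

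Iroquois proteins are transcription factors of the TALE class of homeobox proteins, whose DNA-binding domain carries an extended loop. In the heart they pattern the ventricles and the conduction system and mostly act as repressors. In mammals the genes lie in a pair of clusters, one with Irx1, Irx2 and Irx4 (mouse chromosome 13) and one with Irx3, Irx5 and Irx6 (mouse chromosome 8, which also carries Fendrr). Irx4 is the member best known for its restriction to ventricular muscle.

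The members are closest to each other in the homeobox, so its sequence shows whether reads of 100 bases could be told apart between them. Below is the stretch of 60 bases of the homeobox in which the 6 members were most alike, from the GENCODE vM21 transcripts (mouse build GRCm38), 5′ to 3′. Capitals mark the 5 positions at which at least 1 member differs, and the other 55 are the same in all 6.
Irx1: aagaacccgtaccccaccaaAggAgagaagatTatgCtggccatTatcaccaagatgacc
Irx2: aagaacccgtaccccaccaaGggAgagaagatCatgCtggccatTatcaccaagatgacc
Irx3: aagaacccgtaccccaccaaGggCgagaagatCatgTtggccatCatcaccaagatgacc
Irx4: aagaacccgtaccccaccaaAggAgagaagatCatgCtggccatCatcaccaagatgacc
Irx5: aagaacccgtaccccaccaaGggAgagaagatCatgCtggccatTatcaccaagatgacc
Irx6: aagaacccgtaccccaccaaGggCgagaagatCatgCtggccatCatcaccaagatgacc

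In this stretch Irx2 and Irx5, which lie in different clusters, had 0 differences, and Irx3 and Irx6 had 1. Irx1 and Irx3 were furthest apart, with 5 differences. Over whole transcripts the longest identical run was 88 bases, between Irx3 and Irx6, followed by 65 bases between Irx2 and Irx5 and 50 bases between Irx3 and Irx5. None of the 15 pairs shared a run of 100 bases, so a full-length read without errors differs between any of these members in at least 1 base. How the authors' software placed reads with mismatches in the homeobox was not tested.

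Values were given in FPKM, fragments per kilobase of transcript and relative to all those mapped, which allows levels of different genes to be compared. Differences are given as log2((KO + 1)/(WT + 1)) of the FPKM values. The added 1 FPKM shrinks the difference of a gene of low level. All 6 members were among the 11349 genes whose mean over the libraries reached 1 FPKM. The median log2 ratio of those genes was -0.11, so that values are also read relative to it. The table holds no read counts. Ratios of low values put the KO library at 1.26 times the depth of the WT library, and the worth of a single read gave about 13100000 (WT) and 16400000 (KO) mapped reads. The 95% intervals below are built on read numbers estimated in this way. They cover counting error only, not differences between embryos, pools or runs. Whether WT and KO intervals overlap was judged at the deposited scaling only. Fendrr could not check the labels, because its row, under the older symbol 1110050K14Rik, stood at 0 for WT and for KO. Defining markers of heart muscle were abundant in both libraries: Myl2, the ventricular myosin light chain, was at 9103 (WT) and 9478 FPKM (KO), and Actc1, cardiac actin, at 3605 and 3857 FPKM.

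Irx4, which maintains the ventricular gene programme, was the most abundant Iroquois gene in both libraries. It was at 14.6 FPKM in WT (95% exact Poisson interval 13.3 to 16.0) and 11.2 in KO (10.2 to 12.3). At the deposited scaling the level was thus lower in KO, and the counting intervals did not overlap. Its log2 ratio was -0.35, or -0.25 relative to the median gene, and the FPKM ratio was 0.767 (exact binomial interval 0.672 to 0.877). Under 5 other ways of scaling the libraries the log2 ratio ran from -0.25 to -0.23. Each of these brought KO nearer to WT for Irx4. Whether the intervals overlap there was not computed, so their separation is not established beyond the deposited scaling. Of 4275 genes within 2-fold of its mean level, 15.3% were as far or further below. In bulk tissue, fewer cells expressing a gene and less RNA per cell cannot be told apart, here or in any value below.

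Irx5 encodes a repressor that sets the gradient of potassium current across the ventricular wall. It ranked next to Irx4 in both libraries, at 5.82 FPKM in WT (5.01 to 6.73) and 7.01 in KO (6.21 to 7.89). At the deposited scaling KO was higher, with overlapping intervals, a log2 ratio of 0.23 and an FPKM ratio of 1.20 (0.996 to 1.46). Under the 5 other scalings the log2 ratio was larger, from 0.33 to 0.35, so KO stood further above WT. Interval overlap was not computed there, so the overlap is not established beyond the deposited scaling. Relative to the median gene the difference was 0.34, and 9.05% of the 4686 genes of similar level were as far or further above.

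Irx2, which is expressed in the ventricular septum, was at 5.06 FPKM in WT (4.31 to 5.90) and 4.15 in KO (3.54 to 4.82). Its log2 ratio of -0.23 put it with Irx4 on the lower side, but relative to the median gene it was -0.13, and the interval of its FPKM ratio of 0.820 ran from 0.657 to 1.02. Of genes at a similar level, 28.5% were as far or further below.

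Irx3, a factor of the trabeculae and the fast conduction system, was at 3.28 FPKM in WT (2.70 to 3.95) and 3.47 in KO (2.93 to 4.07). Its log2 ratio was 0.062, or 0.17 relative to the median gene, and its FPKM ratio was 1.06 (0.823 to 1.37). Irx1, like Irx2 a gene of the ventricular septum, was at 2.85 FPKM in WT (2.25 to 3.57) and 3.36 in KO (2.77 to 4.04). Its log2 ratio was 0.18, or 0.29 relative to the median gene, with an FPKM ratio of 1.18 (0.875 to 1.59). As deposited Irx3 differed least of the members, and relative to the median gene Irx2 did. For Irx3 and Irx1 the counting intervals of the libraries overlapped widely.

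Irx6 was the least abundant member, at 1.44 FPKM in WT (1.05 to 1.93) and 2.40 in KO (1.94 to 2.94). It had the largest log2 ratio of the 6, 0.48, or 0.59 above the median gene, and its FPKM ratio was 1.66 (1.15 to 2.43). The intervals of the libraries only just failed to overlap. The low level limits what this shows: the FPKM ratio matched 94 reads in KO and 45 in WT, the smallest whole numbers that fit, while the length of its transcripts gave 112 to 133 reads in KO and 53 to 64 in WT. Of 3207 genes at a similar level, 4.43% were as far or further above.

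**Figure D1:**
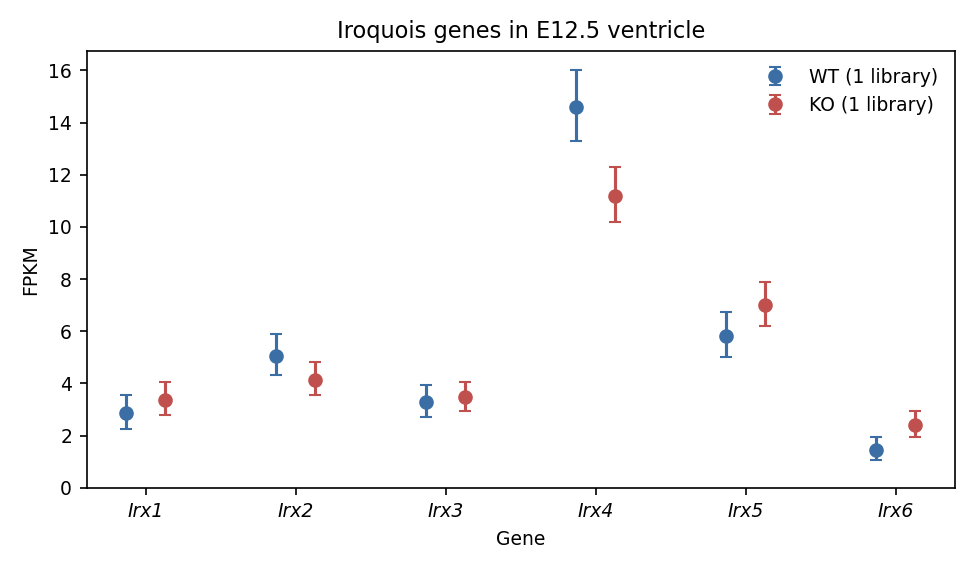
FPKM of each Iroquois gene in the WT library (blue) and the KO library (red), 1 library each. Points are deposited values and bars are 95% exact Poisson intervals from estimated read numbers (counting error only). Irx4 is the highest point in both libraries, 14.6 (WT) and 11.2 FPKM (KO), and Irx6 the lowest, 1.44 and 2.40 FPKM.

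The order of the levels was the same in both libraries: Irx4, Irx5, Irx2, Irx3, Irx1, Irx6. Irx4 was 2.51 times the next gene, Irx5, in WT and 1.60 times in KO, and its counting interval was clear of that of Irx5 in both. In WT the intervals of Irx5 and Irx2 overlapped (5.82 and 5.06 FPKM), while in KO they did not (7.01 and 4.15 FPKM). Irx3 and Irx1 had overlapping intervals in both libraries, so their order is within counting error. In KO, Irx2 also overlapped with Irx3 and with Irx1, and Irx6 overlapped with Irx1 and, barely, with Irx3.

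None of the 6 members was 2-fold higher in KO and none was 2-fold lower, against 0.467% of all 11349 genes that were at least 2-fold higher and 0.388% that were at least 2-fold lower. At 1.5-fold on the log2(FPKM + 1) scale the members again numbered 0 in both directions, against 1.54% of all genes higher and 3.60% lower. Irx6 was past 1.5-fold by its FPKM ratio of 1.66, and also with a pseudocount of 0.1 FPKM, where its log2 ratio was 0.70. Over all genes, 53 were 2-fold higher and 44 lower as deposited, but 66 and 27 after median centring. With so few genes past either limit, a count of 0 among 6 members does not set them apart from the background. A log2 ratio above 0 was found for 4 of the 6 members, against 33.0% of all genes. The same 33.0% is the background for counts above 0 in the lists below. The same 4 lay above the median gene, as 50.0% of all genes do by construction. The median over the members was 0.12, against -0.11 over all genes.

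**Figure D2:**
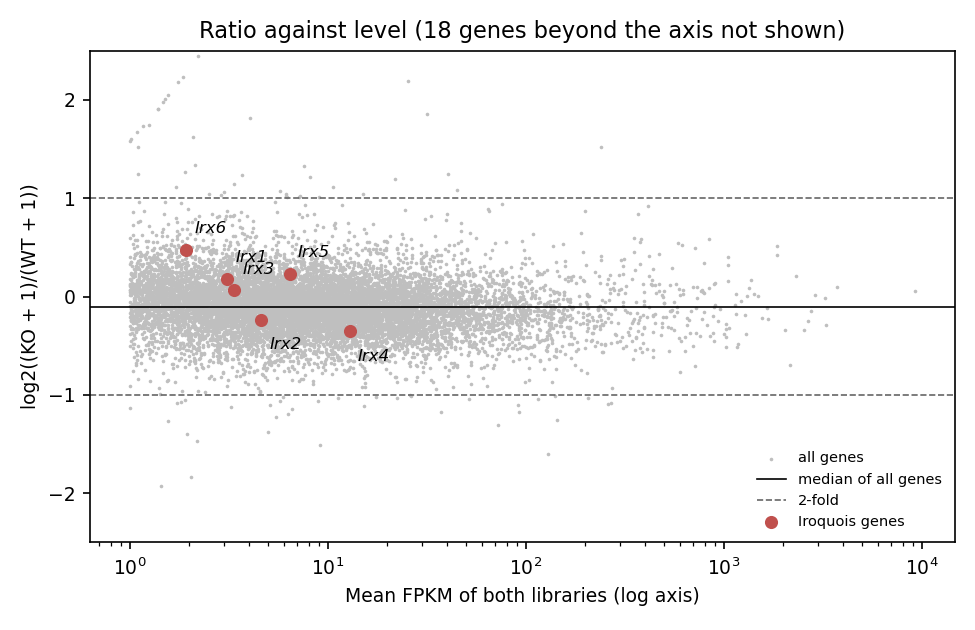
Log2 ratio of KO over WT, log2((KO + 1)/(WT + 1)), against the mean FPKM of both libraries (log axis) for 11349 genes (grey) and the 6 Iroquois genes (red). The solid line is the median of all genes (-0.11) and dashed lines mark 2-fold. All 6 Iroquois genes lie between the dashed lines, from -0.35 (Irx4) to 0.48 (Irx6).

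Read by cluster, the members of chromosome 8 were all higher in KO, with log2 ratios of 0.062 (Irx3), 0.23 (Irx5) and 0.48 (Irx6). Their levels summed to 10.5 (WT) and 12.9 FPKM (KO). On chromosome 13, Irx4 and Irx2 were lower and Irx1 was higher, and the sum was 22.5 (WT) and 18.7 FPKM (KO). The sum over all 6 was 33.1 and 31.6 FPKM, a ratio of 0.956. Irx4 held 44.2% of it in WT and 35.5% in KO, Irx5 17.6% and 22.2%, and Irx6 4.37% and 7.60%. The chromosome 8 members together held 31.9% in WT and 40.8% in KO. With 1 library per genotype, whether the clusters differ could not be tested.

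Genes next to the clusters were taken from a list of neighbours in RefSeq order. Around Irx1, Irx2 and Irx4, all 7 listed neighbours with a mean of at least 1 FPKM had a log2 ratio below 0. Over all genes, only 33.0% lay above 0. Of the 7, 4 were below the median gene, and none was 2-fold apart. Mrpl36, a mitochondrial ribosomal protein gene, was at 17.3 (WT) and 11.5 FPKM (KO). Ndufs6, a respiratory complex I gene and a close neighbour of Irx4, was at 82.8 and 69.3 FPKM, Lpcat1, a phospholipid enzyme gene, at 10.2 and 8.22 FPKM, and Clptm1l at 31.9 and 26.9 FPKM. The other 3 lay above the median gene, and Adamts16, the gene beside Irx1, was at 0.0461 and 0.0611 FPKM. The non-coding row D630045M09Rik of the same region was added after its value was seen and is not among the 7. It was higher in KO, at 5.21 and 6.29 FPKM.

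Around Irx3, Irx5 and Irx6, 6 of 7 measured neighbours had a log2 ratio below 0, where 33.0% of all genes lay above 0. Of the 7, 4 were below the median gene, and none was 2-fold apart. Fto, the RNA demethylase gene beside Irx3, was at 11.3 (WT) and 9.16 FPKM (KO), and Aktip at 13.5 and 10.7 FPKM. Crnde, which makes a non-coding RNA and is the next gene to Irx5, on the opposite strand, was found under its older symbol 4933436C20Rik. It was at 1.97 (WT) and 1.22 FPKM (KO), a log2 ratio of -0.42, while Irx5 had 0.23. Mmp2, a matrix metalloprotease gene on the Irx6 side, was higher in KO, at 34.3 and 38.7 FPKM. The libraries are strand-specific, but whether the counting used strand is not given in the sources used here, so values of Irx3, which GENCODE annotates with an antisense partner, are uncertain in that respect. The antisense row nearest to Irx2, Gm20554, was at 0.375 and 0.276 FPKM, far under Irx2.

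**Figure D3:**
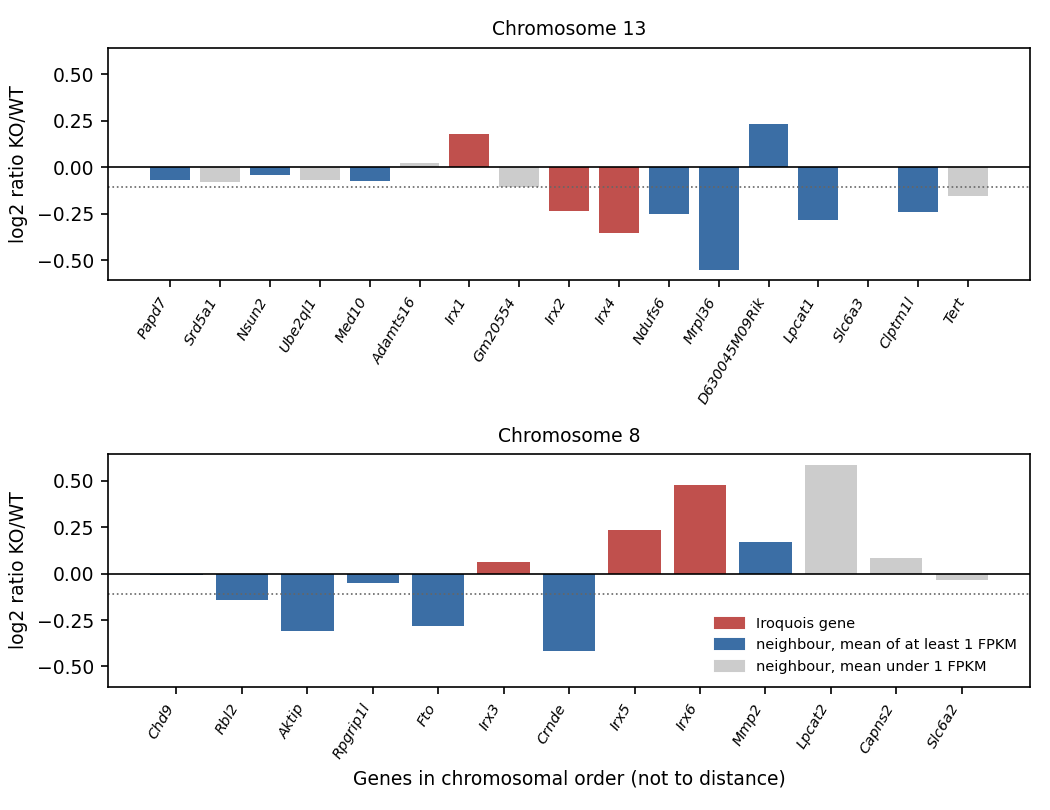
Log2 ratio of KO over WT for genes in chromosomal order around the Iroquois clusters of chromosome 13 (top) and chromosome 8 (bottom), 1 bar per gene. Red bars are Iroquois genes, blue bars neighbours with a mean of at least 1 FPKM, grey bars lower neighbours, and the dotted line is the median of all genes (-0.11). Irx3, Irx5 and Irx6 stand above 0 between Fto and Mmp2, with Crnde below 0 among them at -0.42.

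Genes known to regulate Iroquois genes or to bind their proteins were described as a list. Of 11 measured members, 3 had a log2 ratio above 0 and 8 below, none was 2-fold apart, and the median was -0.16 against -0.11 over all genes. Smyd1, a muscle chromatin factor, was at 79.0 (WT) and 65.1 FPKM (KO), and Tbx20, a cardiac T-box factor, at 49.6 and 46.5 FPKM. Nkx2-5, a cardiac homeobox factor upstream of Irx4, was at 26.6 and 20.4 FPKM, a log2 ratio of -0.36. Nkx2-5 was named after its value was seen, and a link to the Irx4 value was not tested. Gata4 was at 15.3 and 12.1 FPKM, and Tbx5 at 7.29 and 7.27 FPKM. Hand1, which is known to need Irx4 for its full ventricular level, was higher in KO, at 4.35 and 6.86 FPKM, and Hand2 was at 25.6 and 29.8 FPKM.

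Chamber, conduction and channel genes linked to Iroquois factors were likewise close in the libraries. Of 17 measured genes, 10 had a log2 ratio above 0 and 7 below, against 33.0% of all genes above 0. None was 2-fold apart, and the median was 0.058, against -0.11 over all genes. Kcnd2, the potassium channel gene that Irx5 represses, was at 0.958 (WT) and 0.709 FPKM (KO), under the limit of 1 FPKM. Gja1, the connexin gene that Irx3 represses, was at 75.3 and 93.0 FPKM, and Gja5, the connexin gene of the fast conduction system, at 44.4 and 39.3 FPKM. Bmp10, a growth factor gene of the trabeculae, was at 47.2 and 51.1 FPKM, and Nppa, the natriuretic peptide gene, at 2911 and 2631 FPKM. Kcnj2, an inward rectifier channel gene, was at 6.999 and 9.45 FPKM. Among atrial markers, Myl7 was at 1001 (WT) and 773 FPKM (KO) and Sln at 2.79 and 3.27 FPKM.

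Compared with other homeobox genes, the Iroquois genes were of middling level. Among 34 other measured homeobox genes of the lists used, 8 had a higher mean than Irx4, and 1 had a log2 ratio at or above that of Irx6. Their median log2 ratio was -0.037. The other TALE genes (10 measured) had a median of -0.016, with 4 above 0, 6 below and none 2-fold apart. Meis1, a cofactor of Hox proteins, was at 21.7 (WT) and 22.0 FPKM (KO), Meis2 at 19.0 and 21.5 FPKM, and Pbx3 at 11.8 and 13.3 FPKM. By the distance over both libraries in log2(FPKM + 1), the homeobox gene most like Irx4 was Adnp (distance 0.20), like Irx5 Tshz1 (0.21), like Irx2 Pknox1 (0.20), like Irx3 and Irx1 Meis3 (0.16 and 0.040), and like Irx6 Homez (0.40). Over 2 libraries this distance mostly reflects level.

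Some markers of other cell types also differed between the libraries, and their part in the Iroquois values was not tested. All 6 cushion mesenchyme and fibroblast markers were higher in KO, with sums of 374 (WT) and 473 FPKM (KO), led by Postn at 163 and 224 FPKM. Of the epicardial markers, 4 of 6 were higher (sum 76.9 and 86.8 FPKM), and of the endothelial and endocardial markers 3 of 6 (sum 192 and 194 FPKM). Of heart muscle markers 4 of 6 were higher (16419 and 18027 FPKM), and of atrial markers 2 of 6 (3849 and 3029 FPKM). Erythroid markers summed to 3162 and 3263 FPKM, with 2 of 6 higher. Neural markers summed to 4.00 and 3.91 FPKM, with 4 of 6 higher. Only 2 of these 6 reached a mean of 1 FPKM, 1 of them higher and 1 lower. Liver markers summed to 0.548 (WT) and 20.2 FPKM (KO), with 4 of 6 higher and none lower. Afp was at 0.110 and 16.6 FPKM and Ttr at 0.438 and 1.79 FPKM, and only these reached a mean of 1 FPKM. Apoa1 was listed at 0 in WT and was above 1 FPKM in KO, while Alb and Hnf4a were listed at 0 in both. Lung and foregut epithelium, which also expresses Iroquois genes, had markers summing to 0.194 (WT) and 0.599 FPKM (KO), with 3 of 6 higher and 1 lower. Sox2 was at 0 and 0.371 FPKM, and Foxa2 and Shh were listed at 0 in both.

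Under other pseudocounts, minimum levels and quantile normalization, each member kept its side of the median gene wherever it was measured. The other 4 scalings multiply 1 library by a constant and so leave this side all but fixed by construction. Relative to that median, Irx6 ranged most, from 0.27 with a pseudocount of 5 FPKM to 0.82 with a pseudocount of 0.1 FPKM. Irx4 stayed between -0.30 and -0.21.

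**Figure D4:**
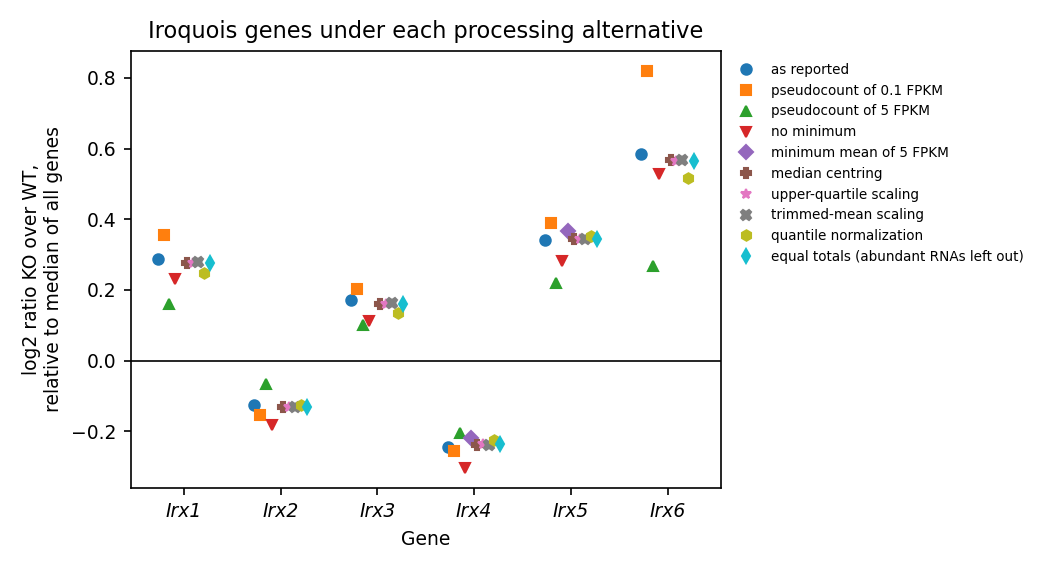
Log2 ratio of KO over WT relative to the median of all genes, for each Iroquois gene under the values as reported and 9 processing alternatives (1 symbol each, 1 library per genotype). Irx2 and Irx4 lie below 0 and the other members above 0 under each alternative in which they were measured. With a minimum mean of 5 FPKM only Irx4 and Irx5 were measured.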

How the data were processed

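One FPKM value per gene symbol and library was deposited. Per the submitters' processing notes, TopHat2 2.0.6, Bowtie2 2.0.2 and Cufflinks 2.0.2 were used with mouse build mm9. Annotation, options and strand setting are not given in the sources used here. Per the labels' protocols, each library came from 500 ng of RNA, 15 PCR cycles and its own run of 100-base single reads. The WT run, begun as paired reads, was aborted and base-called manually, possibly with a length filter, whereas the KO run used the standard software. Run and genotype therefore cannot be told apart.

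Log2 ratios used a pseudocount of 1 FPKM and a minimum mean of 1 FPKM. A gene was counted as higher or lower past 2-fold. No test is possible with 1 library per genotype.

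Relative depth came from 2169 low genes (mean below 0.3 FPKM, both values above 0.001 FPKM): dividing KO by WT gave, for 70.3% of them, the step 0.796 multiplied by a quotient of whole numbers no larger than 10 (tolerance 0.1%). Of 59 genes with 1 GENCODE transcript at exactly this ratio, which holds for any equal read numbers, 17 formed the largest cluster, at 76.5 FPKM times bases (range 65.9 to 83.9), taken as a single WT read. Read numbers are the smallest whole pair matching a member's ratio to 6 digits (up to 300 WT reads, and 0.7 to 1.3 times the number from transcript length) for Irx1, Irx2, Irx5 and Irx6, and come from the shortest full-length transcript for Irx3 and Irx4. Both steps were chosen after seeing the data. They assume scaling to all mapped reads and gene lengths like those of GENCODE.

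The members and all lists (regulators, linked chamber genes, cluster neighbours, homeobox genes, cell type markers) were chosen with earlier results of these data known. Named were all members and, of each list, the 2 highest genes and the 2 furthest from the median ratio, though not each is printed. Nkx2-5, Gata4, Tbx5, Kcnd2, Gja1, Gja5, Bmp10, Fto, Apoa1, Alb, Hnf4a, Sox2, Foxa2, Shh, Gm20554 and D630045M09Rik were named after their values were seen. Older symbols were matched through RefSeq (GRCm38). Its build differs from that of the values, so no gene coordinates are printed. Python 3.11.15, numpy 2.4.6, pandas 2.3.3, scipy 1.17.1 and matplotlib 3.10.9 were used. The procedure was tested on simulated data. Alternatives were other pseudocounts, minimum levels, fold limits and 5 other scalings.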

Additional observations from a re-analysis of the deposited data

How the results depend on the processing

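No paired analysis was possible because there was a single library of each genotype, which also precludes leaving one out. No member passed 2-fold under any alternative. All 50 log2 ratios of members under alternatives kept their sign, but pseudocounts and minimum levels cannot change a sign. The scalings by a constant all raised KO, so among these only Irx2 and Irx4 could have changed sign. The Irx6 log2 ratio, 0.48, was 0.20 with a pseudocount of 5 FPKM and 0.70 with 0.1 FPKM, past 1.5-fold. On the log2(FPKM + 1) scale no member was past 1.5-fold. Under the other scalings the log2 ratio of Irx3 reached 0.17, from 0.062. The median of the members, 0.12, was -0.061 at a minimum mean of 5 FPKM, where only Irx4 and Irx5 remained, and 0.23 with upper-quartile scaling and with equal totals after leaving out haemoglobin and small RNA genes. Genes at least 2-fold higher and lower, 53 and 44, were 98 and 98 with a pseudocount of 0.1 FPKM, 16 and 17 with a pseudocount of 5 FPKM, 175 and 408 at 1.5-fold, and 17 and 7 at 4-fold. Higher genes were 26 at a minimum mean of 5 FPKM. Higher and lower genes were 66 and 27 with median centring, 64 and 29 with trimmed-mean scaling, 67 and 26 with upper-quartile scaling and with equal totals, and 62 and 26 with quantile normalization. Estimated depth limits Irx6 and Irx1 most, with about 45 and 77 reads in WT.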

Other observations

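Of the 50 other homeobox genes listed outside the TALE class, 24 had a mean of at least 1 FPKM, with 11 log2 ratios above 0, 13 below and none 2-fold apart. Hopx, an atypical homeobox gene of heart muscle, was the most abundant, at 67.4 (WT) and 53.3 FPKM (KO), followed by Cux1 at 29.0 and 26.9 FPKM. Prrx2, a mesenchymal homeobox gene, had the lowest log2 ratio of this list, -0.77, at 9.07 (WT) and 4.90 FPKM (KO). Hhex, a homeobox gene of endothelium and foregut, had the highest, 0.63, at 0.604 and 1.48 FPKM. Its mean of 1.04 FPKM was close to the limit of 1 FPKM, and its read numbers were not estimated.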
